A study of Mus musculus with 8 samples.

Results

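The deposited table of skipped exons for iGBs, B cells induced to a germinal centre-like state in culture, held 913 exons, at 1 exon per gene. Of these, 531 had a length that is not divisible by 3, and 382 had a length divisible by 3. Where an exon of the first kind is coding, including or leaving it out changes the reading frame of everything downstream. Not all of the 531 are coding, as given below. These 531 frame-shifting exons were chosen by length alone, but the table they come from was selected by the authors on the same contrast of Prmt5-null and control iGBs that is described here. Differences in inclusion are therefore given as descriptions, with no test. The 8 libraries came from splenic B cells of C57BL6/J mice plated on 40LB feeder cells, which express CD40L and BAFF, with 1 ng/mL IL-4, and separated from the feeders by elutriation at day 4. The 4 Prmt5-null libraries (PRMT5-10617, PRMT5-10618, PRMT5-10770 and PRMT5-10771, named after their mice) carried the genotype PRMT5 FF Cgamma1-cre, in which Cre made from the Cγ1 locus excises Prmt5 in activated B cells, and the 4 controls (CTRL-10370, CTRL-10596, CTRL-10597 and CTRL-10650) carried Cgamma1-cre alone, so Cre was present in both genotypes. The ages of the mice are not given in the labels, and no label ties a library to an experiment.

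Prmt5 is a methyltransferase that places symmetric dimethyl marks on arginine, and the Sm proteins at the core of the spliceosome are among its best known substrates. The spliceosome recognises an exon by the donor site at its end and the acceptor site at its start, and an exon whose sites are not used is joined over. Where the skipped exon is coding and its length is not a multiple of the codon, the ribosome reads the next exons out of frame and usually meets a stop codon early. A stop codon well upstream of the last exon junction marks a transcript for nonsense-mediated decay (NMD), a pathway that removes such transcripts. Some exons work the other way: so-called poison exons carry a stop codon themselves, and their inclusion makes the NMD form.

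The libraries held from 36731721 to 50366174 reads on genes. Prmt5 was far lower in every Prmt5-null library, as given below. The 6 B cell markers summed to 147135 to 170421 normalized counts in control and 148893 to 177101 in Prmt5-null libraries, with 1 of them called lower, and the 5 T cell markers to at most 19.0 and 18.5 (1 of them at 0 throughout). Myeloid markers (3 of the 4 listed were found) summed to 29.6 to 119 in control and 37.03 to 115 in Prmt5-null libraries, and plasma cell markers (also 3 of 4 found) to 21133 to 31603 and 17160 to 22137. The 3 markers of the germinal centre-like state summed to 17677 to 22568 in control and 23227 to 24102 in Prmt5-null libraries, with 1 called lower. The 8 feeder fibroblast markers summed to 3350 to 5976 in control and 5359 to 9412 in Prmt5-null libraries, ranges that overlap, and 3 of the 7 tested were called higher. The part of these other cells in the inclusion levels was not tested.

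The skipped forms of 8 named exons show what a frame shift does to the message. Each line below runs 5′ to 3′ on the coding strand of the GENCODE M21 transcript (GRCm38), starts 4 codons before the codon in which the exons are joined and ends at the first stop codon in the shifted frame, in capitals. In Fbxl5, H2-Ke6, Rps12 and Il2rg the stop follows within 10 codons of the join, whereas Mpdu1 reads through 46 foreign codons first.
Fbxl5: atagatgaatctggtTAG
H2-Ke6: atcattggaaagacatggaatccgatgTAA
Rps12: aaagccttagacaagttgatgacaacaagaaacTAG
Il2rg: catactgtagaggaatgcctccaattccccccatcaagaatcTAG
Rad52: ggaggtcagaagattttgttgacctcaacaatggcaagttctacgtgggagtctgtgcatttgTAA
Prmt5: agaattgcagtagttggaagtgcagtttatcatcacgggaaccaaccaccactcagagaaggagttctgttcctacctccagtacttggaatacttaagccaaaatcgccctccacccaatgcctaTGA
Trmt2a: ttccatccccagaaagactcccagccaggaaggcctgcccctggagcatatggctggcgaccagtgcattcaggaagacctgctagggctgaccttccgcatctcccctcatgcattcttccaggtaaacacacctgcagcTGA
Mpdu1: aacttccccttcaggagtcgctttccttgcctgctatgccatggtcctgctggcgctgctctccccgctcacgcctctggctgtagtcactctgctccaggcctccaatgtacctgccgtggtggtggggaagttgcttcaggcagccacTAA
The upstream exon supplies the first 13 bases of the Fbxl5 line, 12 of H2-Ke6, 14 of Rps12, 13 of Il2rg, 12 of Rad52, 13 of Prmt5, 12 of Trmt2a and 14 of Mpdu1, and the rest is read out of frame.

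The exons that are left out in 4 of these forms are given next, with their last 3 bases, the exonic side of the donor site, in capitals. Those of Rad52 (chr6:119913899-119913992, plus strand), Trmt2a (chr16:18251359-18251474, plus strand), Mpdu1 (chr11:69657936-69658021, minus strand) and Il2rg (chrX:101265630-101265726, minus strand) are all wholly coding.
Rad52: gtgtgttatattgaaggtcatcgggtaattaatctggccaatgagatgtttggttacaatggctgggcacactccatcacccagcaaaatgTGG
Trmt2a: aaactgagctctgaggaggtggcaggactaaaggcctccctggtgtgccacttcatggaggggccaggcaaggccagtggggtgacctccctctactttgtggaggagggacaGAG
Mpdu1: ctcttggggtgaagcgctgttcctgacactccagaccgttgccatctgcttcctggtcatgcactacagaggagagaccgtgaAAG
Il2rg: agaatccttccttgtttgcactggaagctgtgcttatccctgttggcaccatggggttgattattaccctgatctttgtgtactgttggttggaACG
Of the 530 frame-shifting exons found in the annotation, 78.1% ended in G, 53.8% in AG, 25.8% in CAG and 16.4% in AAG. Exons with lower inclusion in Prmt5-null iGBs ended in AG in 53.3% of cases (95% Wilson interval 48.2 to 58.4, n = 362) and those with higher inclusion in 54.8% (47.2 to 62.1, n = 168), intervals that overlap widely. Among exons with a length divisible by 3, 56.1% of 380 ended in AG. The median GC share was 50.5% in frame-shifting exons with lower and 50.9% in those with higher inclusion. The intronic side of the donor was not analysed here.

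Poison exons are shown by Tyw5 (chr1:57393585-57393694, minus strand) and Uba3 (chr6:97205103-97205347, minus strand), with the first stop codon in frame in capitals. The Tyw5 exon opens with its stop.
Tyw5: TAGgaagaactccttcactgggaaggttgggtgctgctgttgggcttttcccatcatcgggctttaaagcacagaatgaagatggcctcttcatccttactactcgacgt
Uba3: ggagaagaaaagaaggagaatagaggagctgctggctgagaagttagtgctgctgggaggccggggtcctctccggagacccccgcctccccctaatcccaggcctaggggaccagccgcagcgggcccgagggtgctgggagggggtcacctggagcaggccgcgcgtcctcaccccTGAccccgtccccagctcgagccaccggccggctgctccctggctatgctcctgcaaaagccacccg

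The 531 exons were 10 to 5527 bases long, with a median of 112, against 102 for exons with a length divisible by 3. Lengths left a remainder of 1 in 243 exons and of 2 in 288. They lay on all chromosomes, with 18 on X. By the best supported coding transcript, taken among those with the same neighbouring exons where there were any, 303 were wholly coding, 39 partly coding, 70 in the 5′ untranslated region and 2 in the 3′ untranslated region. Between these neighbours, a further 57 were annotated in NMD-class transcripts and in no coding one, and 59 in non-coding transcripts alone. Coding transcripts hold 12 of the 57 and 16 of the 59 between other neighbours. The remaining exon was not in the annotation used. The median exon had 330 inclusion plus skipping reads over the 8 libraries, against 492.5 among exons with a length divisible by 3. A minimum of 20 such reads in every library was met by 290 of the 531.

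An inclusion level gives the fraction of transcripts with the exon in them, from reads on its junctions and body corrected for the length of each form. The authors deposited it as 4 values per genotype with no library names, so the values are theirs and the order of the 4 has no meaning. In Prmt5-null iGBs 363 of the 531 frame-shifting exons had a lower mean inclusion level and 168 a higher one, so 68.4% were lower (95% Wilson interval over exons 64.3 to 72.2). The median difference, Prmt5-null minus control, was -0.127 over all 531, -0.176 among those that were lower and 0.163 among those that were higher. The 4 control and 4 Prmt5-null levels did not overlap for 233 of the 531 exons, against 49.3% of all 913 skipped exons, 173 of the 233 in the direction of lower and 60 of higher inclusion.

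**Figure D1:**
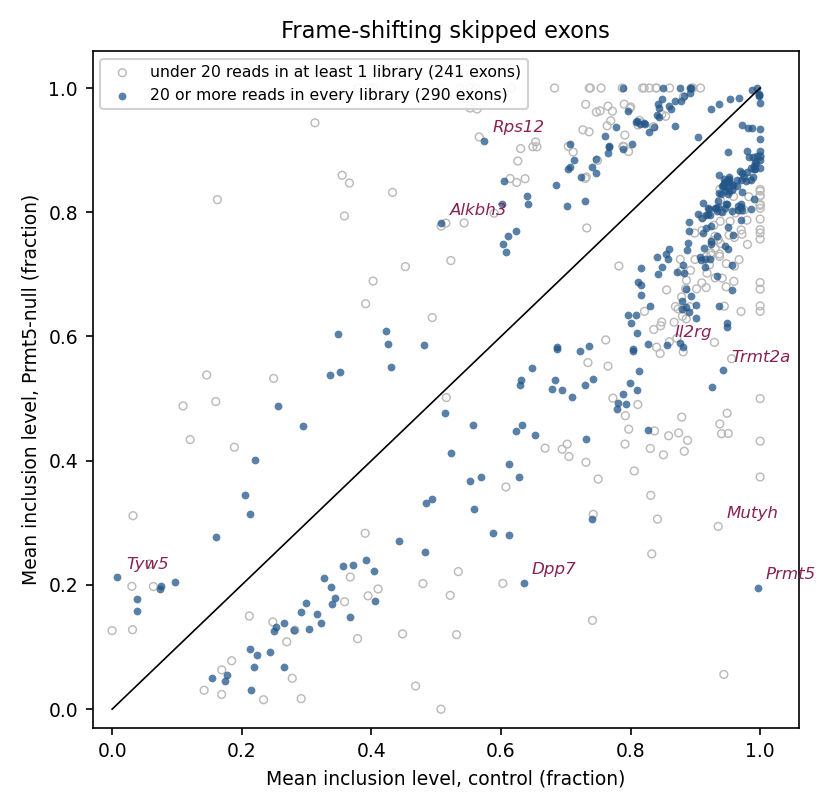
Mean inclusion level (a fraction) of each of the 531 frame-shifting skipped exons in control (x axis) and Prmt5-null (y axis) iGBs; filled points have 20 or more reads in every library, open points do not, and the line marks equal levels. Of the exons, 363 lie below the line and 168 above it, and Prmt5 is the lowest filled point at the right.

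The control level bounded the direction. Of 188 exons with a control level of at least 0.9, 180 were lower in Prmt5-null iGBs, of 331 with a level between 0.1 and 0.9 it was 183, and of 12 with a level of at most 0.1 it was 0. An exon near full inclusion has little room to rise, so the middle class, at 55.3% lower (95% Wilson interval 49.9 to 60.6), is the one in which both directions were open. The exons of NMD-class transcripts were nearly balanced, with 29 lower and 28 higher (23 and 22 for those that no coding transcript holds), whereas the wholly coding exons were lower in 218 of 303 cases and the 5′ untranslated ones in 51 of 70. The median control level was 0.605 in these NMD-class exons and 0.899 in the wholly coding ones. Of the exons with a length divisible by 3, 11 of 25 NMD-class and 200 of 289 wholly coding ones were lower.

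The shares lay close together in both frames. Exons with a length divisible by 3 were lower in 252 of 382 cases, or 66.0% (61.1 to 70.5), with a median difference of -0.120. With at least 20 reads in every library the share was 72.8% (67.4 to 77.6) of 290 frame-shifting and 73.1% (67.3 to 78.2) of 253 other exons, and with at least 50 reads 76.8% (70.1 to 82.4) of 177 and 72.0% (64.8 to 78.3) of 168. The intervals overlap at each depth. Among exons with fewer than 20 reads in some library, 63.1% (56.8 to 68.9) of 241 frame-shifting and 51.9% (43.4 to 60.4) of 129 other exons were lower, and the median size of the difference was 0.224 in the former, against 0.138 in the 290 deeper ones. These intervals take exons as the unit and cover no spread between mice. By remainder, 67.9% of the exons that leave 1 base and 68.8% of those that leave 2 were lower in Prmt5-null iGBs.

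**Figure D2:**
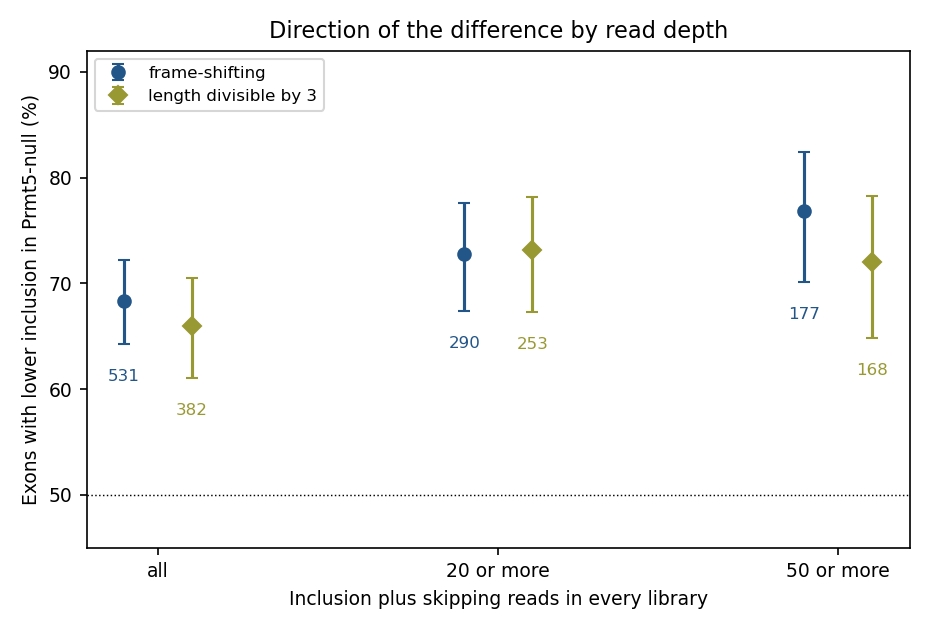
Share of skipped exons with lower inclusion in Prmt5-null than in control iGBs (%, y axis, which starts at 45) by the reads required in every library (x axis), for frame-shifting exons (circles) and exons with a length divisible by 3 (diamonds); bars are 95% Wilson intervals over exons, numbers count the exons, and the dotted line marks 50%. The share rises from 68.4% to 76.8% of the frame-shifting exons as the minimum rises, and the bars of the 2 kinds overlap throughout.

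The largest fall was in Prmt5 itself, in its exon 7 of 17 (chr14:54513291-54513454, 164 bases). Inclusion levels were 1, 1, 0.995 and 0.989 in control and 0.153, 0.304, 0.027 and 0.298 in Prmt5-null iGBs. Every control value was at or above 0.989 and every Prmt5-null value at or below 0.304. Which exon the floxed allele removes is not given in the labels, so loss of this exon from the DNA and skipping in the RNA cannot be told apart. The skipped form reads 38 codons out of frame and stops after 242 residues, against 637 for the full protein. As a gene, Prmt5 had 11084, 11657, 11267 and 13088 normalized counts in the control libraries and 1291, 1994, 1060 and 1808 in the Prmt5-null libraries, listed as the mice were named at the start (log2 fold change -2.98, SE 0.17, limma adjusted p = 6.14e-06, 4 libraries per genotype). An exact two-sided permutation test of the 8 libraries gave p = 0.0286, the smallest that 4 against 4 allows. The counts below that cover all members change by 1 at most without it.

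The other 7 of the 8 largest falls, among exons with at least 20 reads in every library and levels that do not overlap, were in genes of varied roles. Cyp4f18, a cytochrome P450 that hydroxylates leukotriene B4, had levels of 0.78, 0.888, 0.619 and 0.676 in control and 0.358, 0.267, 0.334 and 0.267 in Prmt5-null iGBs. Dpp7, a lysosomal dipeptidyl peptidase, had levels of 0.697, 0.582, 0.627 and 0.634 in control and 0.162, 0.069, 0.386 and 0.198 in Prmt5-null iGBs. In both genes the exon went from the major to the minor form, with means of 0.741 to 0.306 and of 0.635 to 0.204. Unc45a, a chaperone of myosin, had levels of 0.88, 0.979, 0.899 and 0.943 in control and 0.562, 0.551, 0.437 and 0.523 in Prmt5-null iGBs, in an exon annotated in non-coding transcripts alone. Trmt2a, a methyltransferase of tRNA uridines, had levels of 1, 0.899, 0.934 and 0.938 in control and 0.602, 0.523, 0.57 and 0.489 in Prmt5-null iGBs. Almost all control transcripts held the Trmt2a exon, and close to equal shares held and lacked it in Prmt5-null iGBs (means of 0.943 to 0.546, at least 146 reads per library).

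Rad52, which anneals single strands in homologous recombination, had levels of 0.81, 0.708, 0.908 and 0.881 in control and 0.6, 0.304, 0.518 and 0.378 in Prmt5-null iGBs, and its skipped form stops after 80 of 419 residues. Phkg2, the catalytic subunit of phosphorylase kinase in liver and other tissues, had levels of 0.959, 0.929, 0.941 and 0.964 in control and 0.624, 0.675, 0.503 and 0.658 in Prmt5-null iGBs, in an exon of 55 bases that NMD-class transcripts hold between these neighbours and 2 coding transcripts between others. Mpdu1, which is needed to use mannose-dolichol in glycosylation, had levels of 0.947, 0.974, 0.927 and 0.949 in control and 0.688, 0.605, 0.643 and 0.549 in Prmt5-null iGBs with at least 159 reads per library. Control levels of Mpdu1 all lay above 0.92 and Prmt5-null levels all below 0.69. The Mpdu1 skipped form stops after 146 of 247 residues.

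The 8 largest rises under the same conditions ran from 0.186 to 0.342, and the 8 largest falls from -0.8 to -0.328. Rps12, a protein of the small ribosomal subunit, had the largest, with levels of 0.77, 0.556, 0.607 and 0.361 in control and 1, 0.84, 0.897 and 0.923 in Prmt5-null iGBs. The skipped Rps12 form stops after 50 of 132 residues and was thus the rarer in Prmt5-null iGBs, with 70 skipping reads over the control and 12 over the Prmt5-null libraries. Ribosomal protein genes have near-identical copies, which makes their unique reads uncertain. Alkbh3, a dioxygenase that repairs alkylated bases, had levels of 0.401, 0.641, 0.458 and 0.533 in control and 0.903, 0.697, 0.7 and 0.83 in Prmt5-null iGBs, in an exon of its 5′ untranslated region. Cep78, a centrosomal protein, had levels of 0.726, 0.879, 0.784 and 0.762 in control and 1, 1, 1 and 1 in Prmt5-null iGBs, and its skipped form was not seen in any Prmt5-null library. The exon of 2310035C23Rik had levels of 0.706, 0.72, 0.817 and 0.583 in control and 0.9, 0.97, 0.893 and 0.876 in Prmt5-null iGBs.

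Tyw5, a hydroxylase of the wybutosine base of tRNA, went from near absence of its poison exon, at 0.022, 0, 0.011 and 0 in control and 0.278, 0.354, 0.085 and 0.134 in Prmt5-null iGBs. Over the libraries 3 inclusion and 176 skipping reads were seen in control, and 84 and 162 in Prmt5-null iGBs. Inclusion stops the Tyw5 protein after 116 of 315 residues. Uba3, the catalytic subunit of the NEDD8-activating enzyme, already held its poison exon in control and more of it in Prmt5-null iGBs, with levels of 0.483, 0.372, 0.434 and 0.402 in control and 0.544, 0.716, 0.573 and 0.604 in Prmt5-null iGBs. Junction reads alone gave Uba3 lower means, of 0.229 and 0.369. Prr13 had levels of 0.354, 0.319, 0.349 and 0.322 in control and 0.519, 0.469, 0.549 and 0.617 in Prmt5-null iGBs and Rnf146, a ubiquitin ligase that binds poly(ADP-ribose), levels of 0.424, 0.415, 0.169 and 0.401 in control and 0.591, 0.469, 0.46 and 0.651 in Prmt5-null iGBs, both in 5′ untranslated exons.

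**Figure D3:**
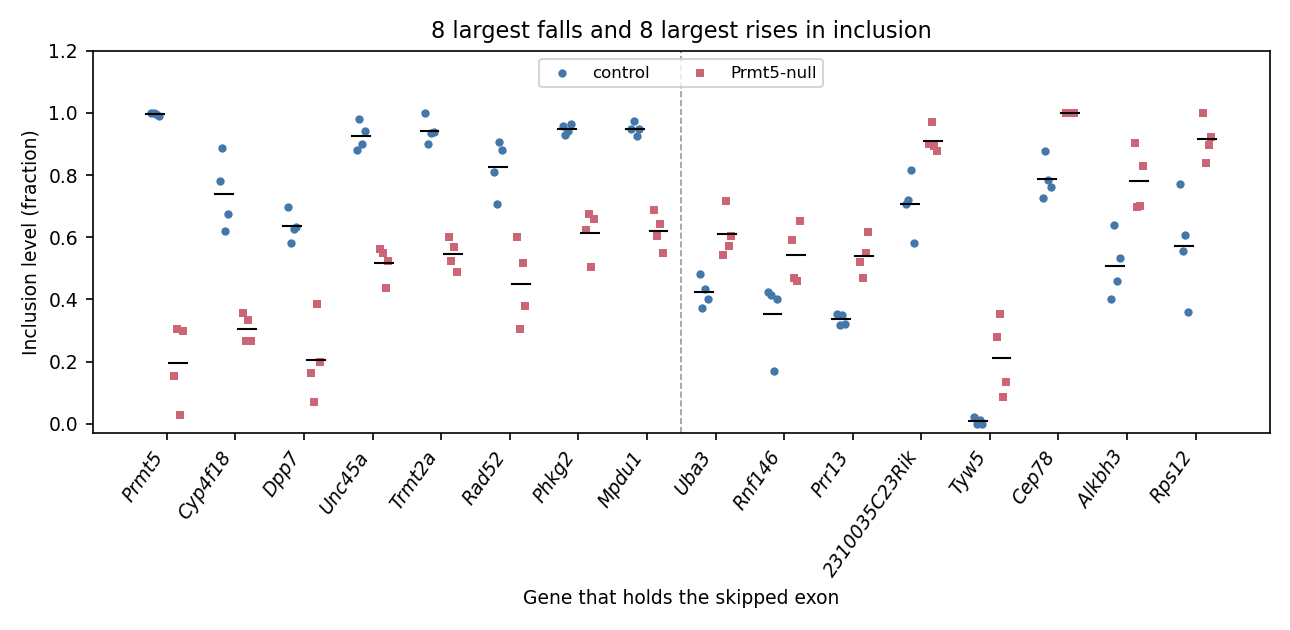
Inclusion level (fraction, y axis) of the exons with the 8 largest falls (left of the dashed line) and the 8 largest rises (right), by host gene (x axis); circles are the 4 control and squares the 4 Prmt5-null values, and bars their means. Prmt5, Trmt2a, Phkg2 and Mpdu1 start at means of 0.943 or more in control, and Tyw5 starts at 0.008.

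DNA repair, chromatin and p53 regulator genes are among those that the study names for splicing. Prmt5 and Mdm2 were added to these here, and 14 genes of that list had a frame-shifting exon in the table. The paper's main text reports no splicing change of Prmt5 or Mdm2. Besides Prmt5, Rad52 and Alkbh3, Mutyh, the glycosylase that removes adenine opposite oxidised guanine, had levels of 1, 0.812, 0.929 and 1 in control and 0.303, 0.095, 0.251 and 0.528 in Prmt5-null iGBs, which do not overlap but rest on as few as 8 reads in a library. Its skipped form stops after 262 of 515 residues. For 5 of the genes the depth allows little: Polg2 had 14 reads in all, Smc4 25, Dclre1c 55, Hdac6 56 and Tdp2 68 over the 8 libraries, and no library minimum above 4. The Polg2 exon is annotated in an NMD-class transcript and no coding one. Hdac6, a cytoplasmic deacetylase, had levels of 1, 1, 1 and 1 in control and 0.79, 0.75, 0.273 and 0.892 in Prmt5-null iGBs, and those of Smc4, a condensin subunit, ranged from 0 to 1 within the controls.

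Among members of the Tip60 acetyltransferase complex, Ep400, its ATPase, had levels of 0.923, 0.909, 0.935 and 0.868 in control and 0.747, 0.742, 0.642 and 0.763 in Prmt5-null iGBs, in exon 48 of 52. Meaf6, another subunit, had levels of 0.312, 0.317, 0.163 and 0.221 in control and 0.202, 0.109, 0.149 and 0.069 in Prmt5-null iGBs in an exon that adds a stop codon, and these ranges overlap. Ruvbl2, a helicase of the same complex, moved little, with levels of 1, 0.916, 0.969 and 1 in control and 0.928, 0.929, 0.902 and 1 in Prmt5-null iGBs. Junction reads alone gave Ruvbl2 means of 0.762 and 0.506, a larger difference. Mdm2, the ubiquitin ligase that restrains p53, had levels of 0.7, 0.705, 0.695 and 0.616 in control and 0.536, 0.47, 0.549 and 0.508 in Prmt5-null iGBs, in an exon of 85 bases that is partly coding, with at least 326 reads per library.

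Il2rg, the common γ chain of the receptors for IL-2, IL-4 and IL-21, had levels of 0.835, 0.876, 0.853 and 0.859 in control and 0.651, 0.574, 0.573 and 0.548 in Prmt5-null iGBs. This was among the best supported falls, with at least 390 reads in every library. The Il2rg exon is exon 6 of 8, and the form without it stops after 263 of 369 residues, 35 bases before the last junction. That stop lies inside the 50 bases used here as the limit of an early stop, so the form is not counted as one. The Il2rg gene had a log2 fold change of -0.36 (limma adjusted p = 0.0328), less than 1.5-fold and therefore not called.

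Grouped by function, the share of members with lower inclusion ran from 63.2% to 80% over the 7 lists that held any, against 68.4% of all 531. The 8 lists of genes were written with earlier results of these data known, so the share of a list that holds a member has no independent weight. For reference, 3.99% of the 13300 genes with a mean above 50 held one. Of 25 DNA repair genes with a frame-shifting exon, 19 had lower inclusion (median difference -0.127). Rises there besides Alkbh3 were found in Fancc, of the Fanconi core complex, with levels of 0.747, 0.816, 0.838 and 0.782 in control and 0.962, 1, 0.931 and 0.96 in Prmt5-null iGBs, and in Atrx, a chromatin remodeller, with levels of 0.251, 0.329, 0.377 and 0.223 in control and 0.505, 0.416, 0.442 and 0.462 in Prmt5-null iGBs. The Fancc exon is partly coding. Added to a coding transcript that skips it, the Atrx exon brings a stop codon. However, 2 annotated coding transcripts hold the Atrx exon between other neighbours, and no NMD-class transcript holds it. Over the whole list, limma called 2 of 136 genes higher (1.47%) and 7 lower (5.15%), against 3.14% and 3.17% of the genes with a mean above 50.

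RNA-binding and splicing factors had 12 of 19 lower, while 2 of 101 genes of that list were called higher and 2 lower (1.98% each, against 3.14% and 3.17% of the genes with a mean above 50), and all but Prpf39 of the 4 with the largest differences were higher. Rbm5, a regulator of exon choice in apoptosis genes, had levels of 0.779, 0.798, 0.778 and 0.686 in control and 0.947, 0.914, 0.949 and 0.884 in Prmt5-null iGBs, and Rbm25 levels of 0.743, 0.701, 0.639 and 0.729 in control and 0.855, 0.959, 0.907 and 0.757 in Prmt5-null iGBs. Celf1, a CUG-binding protein, had levels of 0.712, 0.496, 0.674 and 0.677 in control and 0.745, 0.921, 0.894 and 0.742 in Prmt5-null iGBs. The Rbm25 exon is partly coding, and between its neighbours the Celf1 exon is annotated in non-coding transcripts alone. Prpf39, a U1-associated factor, had levels of 0.177, 0.382, 0.36 and 0.295 in control and 0.154, 0.112, 0.098 and 0.151 in Prmt5-null iGBs in a poison exon, which means less of the early-stop form in Prmt5-null iGBs. No factor of the 16 in the NMD list held a frame-shifting exon of the table, and limma called 0 of them (6 had an unadjusted p below 0.05, and edgeR and DESeq2 also called 0).

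Chromatin genes were lower in 17 of 23 cases, and of 160 in the list 1 was called higher (0.625%) and 2 lower (1.25%), where the genes with a mean above 50 gave 3.14% and 3.17%. Suv420h2, a methyltransferase of H4K20, had levels of 1, 0.952, 0.978 and 0.953 in control and 0.803, 0.699, 0.807 and 0.842 in Prmt5-null iGBs in an exon of 20 bases, Hdac7 levels of 0.935, 0.912, 0.919 and 0.933 in control and 0.824, 0.71, 0.736 and 0.746 in Prmt5-null iGBs and Kat7, an H3 and H4 acetyltransferase, levels of 0.762, 0.695, 0.666 and 0.764 in control and 0.589, 0.535, 0.579 and 0.605 in Prmt5-null iGBs. In the list of the p53 pathway and the cell cycle, 12 of 15 were lower, and 10 of 128 genes were called higher (7.81%, against 3.14% of the genes with a mean above 50) and 0 lower by limma, against 3.17% (25 had a lower level at an unadjusted p below 0.05, and edgeR and DESeq2 also called 0 lower). Tfdp1, the partner of E2F factors, had levels of 0.819, 0.845, 0.786 and 0.813 in control and 0.643, 0.683, 0.643 and 0.696 in Prmt5-null iGBs. Read from the start codon of the transcript used, the form without the Tfdp1 exon ends after 9 residues. An annotated coding transcript also skips this exon, and its own frame was not read. Huwe1, a ubiquitin ligase of p53 and Myc, went from a mean of 0.393 to 0.239 and Ccnl1, a cyclin, from 0.85 to 1. Between its neighbours the Huwe1 exon is annotated in non-coding transcripts alone, and the Ccnl1 exon in NMD-class transcripts and no coding one.

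Among B cell receptor, cytokine and immune genes 22 of 30 were lower, with 8 of 143 genes called higher (5.59%) and 4 lower (2.8%), where the genes with a mean above 50 gave 3.14% and 3.17%. Cd82, a tetraspanin, had levels of 0.898, 0.866, 0.871 and 0.88 in control and 0.713, 0.634, 0.619 and 0.66 in Prmt5-null iGBs, and Sh2b1, an adaptor of JAK kinases, levels of 0.934, 0.895, 0.838 and 0.858 in control and 0.673, 0.573, 0.628 and 0.456 in Prmt5-null iGBs. The Cd82 exon lies in the 5′ untranslated region, and the Sh2b1 exon is partly coding. Il12rb1, a chain of the IL-12 and IL-23 receptors, went from a mean of 0.743 to 0.532. Genes of translation and tRNA were lower in 20 of 27 cases (2 of 104 genes called higher and 2 lower, 1.92% each), Trit1, which isopentenylates tRNA, with means of 0.804 to 0.577 and the small nucleolar RNA host Gas5 with means of 0.406 to 0.175. Mitochondrial and metabolic enzymes were lower in 20 of 26 cases, and of 103 genes 2 were called higher (1.94%) and 6 lower (5.83%). There the iron-sulfur genes Isca2 and Fdx1l went from 0.814 to 0.544 and from 0.915 to 0.725, and Ndufs1, of complex I, from 0.323 to 0.139. Between its neighbours the Ndufs1 exon is annotated in non-coding transcripts alone, as is the Gas5 exon.

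The 5 exons with the most reads were those of Gm28036, Lime1, Mef2c, Rai1 and Eif4a2. Gm28036, a transcript that overlaps Cpne1 on the same strand, had levels of 0.727, 0.728, 0.716 and 0.748 in control and 0.542, 0.58, 0.467 and 0.498 in Prmt5-null iGBs over at least 2070 reads per library. On junction reads alone the Gm28036 means were 0.0208 in control and 0.012 in Prmt5-null iGBs, so its levels rest on reads in the body of an exon of 1955 bases. Its 223 skipping reads in control and 478 in Prmt5-null iGBs equal in number those of the Cpne1 exon. Lime1, an adaptor of antigen receptor signalling, had levels of 0.932, 0.931, 0.914 and 0.916 in control and 0.795, 0.708, 0.726 and 0.672 in Prmt5-null iGBs. Eif4a2, a helicase of translation initiation, went from 0.687 to 0.58 and Rai1 from 0.694 to 0.514, both with overlapping ranges (Eif4a2 0.618 to 0.762 in control and 0.504 to 0.642 in Prmt5-null iGBs, Rai1 0.571 to 0.778 and 0.384 to 0.653). The Eif4a2 and Rai1 exons are partly coding, and that of Gm28036 is annotated in an NMD-class transcript and no coding one. Mef2c, a transcription factor of B cells, had levels of 0.989, 1, 1 and 0.993 in control and 1, 1, 1 and 1 in Prmt5-null iGBs, the smallest difference of the 531.

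Mef2c, Il21r and Il9r, the 3 exons with the smallest differences, mark the lower edge of the table. Il21r levels were 0.994, 1, 1 and 1 in control and 0.985, 0.991, 0.991 and 0.996 in Prmt5-null iGBs, and those of Il9r 1, 1, 1 and 0.991 in control and 1, 1, 0.975 and 0.981 in Prmt5-null iGBs. For 39 of the 531 exons the difference was under 0.1 in size on the levels used here, and 37 of these had one of at least 0.1, to within 0.0005, on the levels from junction reads alone. In Mef2c the junction levels had means of 0.707 in control and 1 in Prmt5-null iGBs, with 6 skipping reads over the control libraries against 3955 inclusion reads and 0 against 4056 over the Prmt5-null ones. Over the 516 exons with a junction level in every library the direction of the set was the same, as given under the alternatives.

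Reading each coding frame through the change gave a fate for 340 of the 531 exons. Removing the exon from an annotated coding transcript was possible for 299, and in 234 of these the first stop then lay more than 50 bases before the last junction, an early stop of the kind that NMD recognises. For some of these exons, those of Tfdp1, Trmt2a and Clec2i among them, another annotated coding transcript skips the exon, and its own frame was not read. Adding the exon to a coding transcript was possible for 41, and 40 then had an early stop, in 27 cases inside the added exon. Among exons with a length divisible by 3, removal gave an early stop in 1 of 267, but addition did so in 9 of 13. For 5 of the 41 added exons a coding transcript holds the exon between other neighbours. After removal a median of 11.5 codons was read out of frame before the stop (quartiles 4.25 and 28), and the median product kept 39.7% of the residues. The early-stop form was a larger share of the transcripts in Prmt5-null than in control iGBs for 186 of the 274 exons that had one, or 67.9%. It was a smaller share for 88. That 67.9% is close to the share with lower inclusion, 68.4% of all 531 and 66.0% of the exons with a length divisible by 3. The increase came from exon skipping in 165 genes and from exon inclusion in 21.

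All 531 host genes were above the mean of 10 normalized counts needed for the test, and all above 50, the minimum the authors used. Inclusion and gene level were measured in the same libraries, so gene level is given as a description beside the limma calls over all genes, and no test was made on the members. Of the 531, 33 host genes (6.21%) were called lower and 9 (1.69%) higher. Among all 16250 tested genes 2.99% were called lower and 3.49% higher, and among the 13300 with a mean above 50 it was 3.17% and 3.14%. The share called lower was smaller among exons with more reads. Of the 290 hosts of exons with at least 20 reads in every library 15 (5.17%) were called lower and 6 (2.07%) higher, and of the 177 with at least 50 reads 5 were called lower and 5 higher (2.82% each). In genes whose exon has a length divisible by 3, 15 of 382 were called lower (3.93%) and 8 higher (2.09%). With at least 20 reads these were 5 lower (1.98%) and 2 higher (0.791%) of 253, and with at least 50 reads 2 lower (1.19%) and 0 higher of 168. The median log2 fold change was -0.06 over the frame-shifting hosts, -0.02 over the others and -0.0049 over the genes with a mean above 50. Bulk libraries do not tell fewer transcripts per cell from fewer cells that make them.

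Split by the fate of the frame, the 165 genes that made more of an early-stop form by skipping had a median log2 fold change of -0.12 (quartiles -0.38 and 0.06), with 110 below 0 (66.7%), 16 called lower (9.70%, 15 besides Prmt5) and 0 called higher by limma. Of the genes with a mean above 50, 50.9% were below 0, 3.17% were called lower and 3.14% higher. At an unadjusted p below 0.05, 8 of the 165 genes were higher, and edgeR and DESeq2 each called 1 higher. The 69 genes that made less of an early-stop form by skipping had a median of -0.01, with 36 below 0 (52.2%), 3 called lower (4.35%) and 1 higher (1.45%). Of the 200 genes with a coding exon of a length divisible by 3 and lower inclusion, 109 were below 0 (54.5%), 8 were called lower (4%) and 5 higher (2.5%), at a median of -0.02. In the 21 genes that gained an early stop by inclusion the median was 0.10, 7 were below 0 (33.3%), 2 were called lower (9.52%) and 1 higher (4.76%). The 19 genes that lost inclusion of such an exon had a median of -0.01.

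A lower median was also found without an early stop. In 52 genes the exon was lower in Prmt5-null iGBs and its loss shifted the frame without an early stop. The median of these 52 was -0.17, with 37 below 0 (71.2%), 6 called lower (11.5%) and 1 higher (1.92%), against 50.9%, 3.17% and 3.14% of the genes with a mean above 50. Requiring 20 reads in every library moved the 165 genes to 102, with a median of -0.18, 71 below 0 (69.6%), 9 called lower (8.82%) and 0 higher, and 50 reads to 62, with 44 below 0 (71.0%), 4 called lower (6.45%) and 0 higher. Without Prmt5 the median of the 164 others was -0.12. By the size of the fall in inclusion, the median was -0.06 for the 69 exons with a fall under 0.15, -0.16 for the 62 from 0.15 to 0.25 and -0.17 for the 34 of at least 0.25. Median reads per exon were 653, 241 and 161.5 in the same order, so the larger falls rest on fewer reads. Reads of the exon are also part of the gene value. The part of either in these medians was not tested. Across the 274 exons with an early-stop form, the change in that form and the log2 fold change of the gene had a Pearson r of -0.204 and a Spearman rho of -0.179, and of -0.128 and -0.170 without Prmt5. The points share their 8 libraries, and exons are not independent replicates.

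The spread between mice is wide beside these medians. Against the mean of the controls, the median change of the 165 genes was -0.13 in PRMT5-10617, 0.01 in PRMT5-10618, -0.33 in PRMT5-10770 and -0.14 in PRMT5-10771 on the log2 scale, and from -0.08 to 0.07 in the 4 controls. PRMT5-10618 thus lay within the controls. The 200 coding exons with a length divisible by 3 had medians of -0.05, 0.06, -0.16 and -0.01 in the same order, from -0.02 to 0.02 in controls. The difference between the 165 and the 200 genes was -0.08, -0.05, -0.17 and -0.13 in the Prmt5-null libraries and -0.06 to 0.07 in the controls, so 1 control, CTRL-10650, reached the range of the Prmt5-null libraries. For the 52 genes without an early stop all 4 Prmt5-null medians, at -0.21 to -0.13, lay below all 4 controls, at -0.05 to 0.05. Over all 531 hosts the Prmt5-null medians ran from -0.16 to 0.03 and the control medians from -0.06 to 0.04, which overlap.

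**Figure D4:**
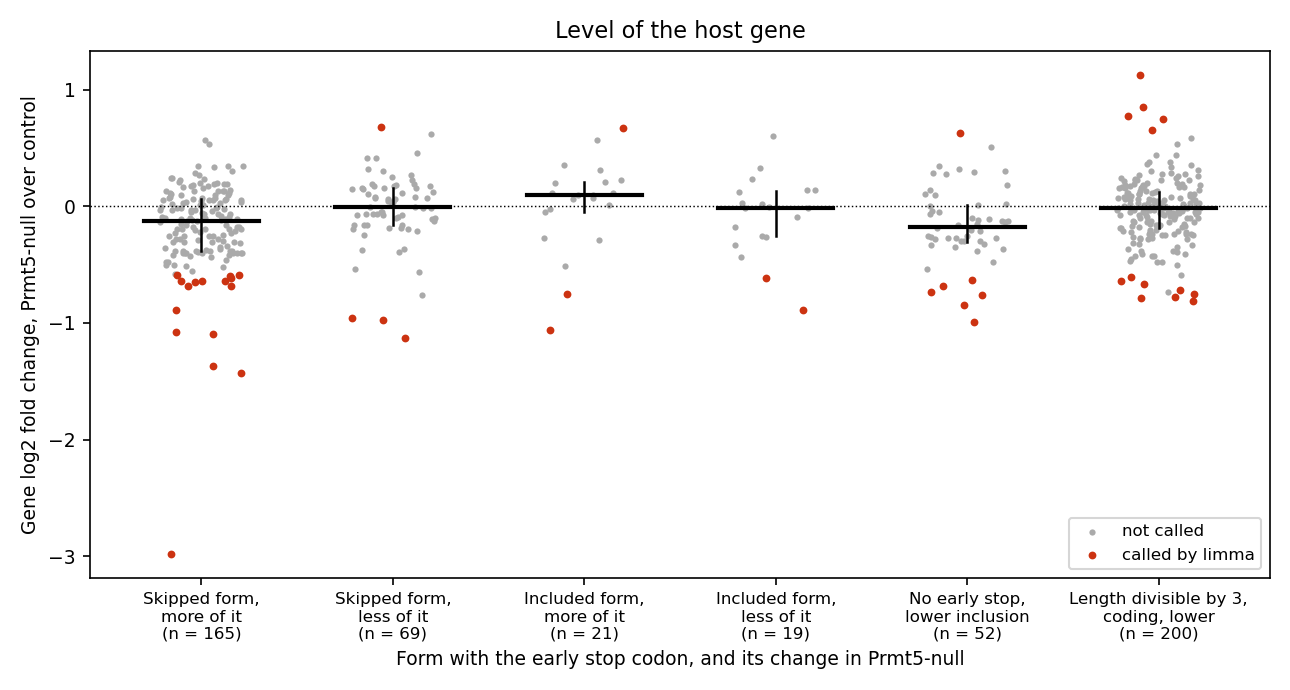
Log2 fold change of the host gene (Prmt5-null over control, y axis) by the form that carries the early stop codon and its change in Prmt5-null iGBs (x axis), with the exons that shift the frame without an early stop and the coding exons with a length divisible by 3, both with lower inclusion, at the right; points are genes, red where limma called them, and bars are medians with quartiles. The first group has a median of -0.12 with 16 of 165 genes called lower (9.70%) and 0 higher, against 3.17% and 3.14% of the genes with a mean above 50. The lowest point is Prmt5.

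The host genes with the largest called falls after Prmt5 were led by Eaf2, a factor of transcription elongation, with 1665, 2027, 1706 and 1261 normalized counts in the control libraries and 556, 711, 525 and 660 in the Prmt5-null libraries (log2 fold change -1.43, SE 0.14, limma adjusted p = 0.000133). Its exon had levels of 1, 1, 0.718 and 1 in control and 0, 1, 0.362 and 1 in Prmt5-null iGBs, which overlap and rest on as few as 3 reads. H2-Ke6, also known as Hsd17b8, an enzyme of steroid and fatty acid metabolism, had 952, 1077, 924 and 800 normalized counts in the control libraries and 420, 424, 303 and 317 in the Prmt5-null libraries (log2 fold change -1.37, SE 0.14, limma adjusted p = 0.000142). H2-Ke6 inclusion went from 1, 0.987, 0.981 and 1 in control and 0.947, 0.851, 0.78 and 0.947 in Prmt5-null iGBs, a small shift beside the change of the gene. Clec2i, a C-type lectin, had 2180, 1505, 1851 and 1483 normalized counts in the control libraries and 705, 987, 661 and 860 in the Prmt5-null libraries (log2 fold change -1.13, SE 0.15, limma adjusted p = 0.000625), with an exon whose inclusion was higher, at 0.713, 0.837, 0.863 and 0.903 in control and 1, 1, 1 and 1 in Prmt5-null iGBs. The Clec2i early-stop form, read from the start codon of the transcript used, was thus the rarer in Prmt5-null iGBs, where the gene fell. An annotated coding transcript also skips this exon. The non-coding Eldr had 158, 99.4, 90.1 and 63.5 normalized counts in the control libraries and 51.8, 42.9, 39 and 37.4 in the Prmt5-null libraries (log2 fold change -1.18, SE 0.26, limma adjusted p = 0.0117), and its exon had 86 reads in all.

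Of the genes with the largest called rises, Cpne1, a calcium-dependent membrane-binding protein, had 3690, 3902, 3915 and 3765 normalized counts in the control libraries and 6895, 6980, 7068 and 6852 in the Prmt5-null libraries (log2 fold change 0.86, SE 0.06, limma adjusted p = 2.53e-05). Cpne1 and Gm28036 overlap on the same strand, so their reads may be shared. The Cpne1 exon, in the 5′ untranslated region, had levels of 0.208, 0.267, 0.217 and 0.28 in control and 0.069, 0.114, 0.107 and 0.081 in Prmt5-null iGBs. Tsen54, a subunit of the tRNA splicing endonuclease, had 1745, 2031, 1830 and 1773 normalized counts in the control libraries and 3083, 3558, 3110 and 3321 in the Prmt5-null libraries (log2 fold change 0.82, SE 0.08, limma adjusted p = 0.000126), with an exon seen in 54 reads in all. Sh2b1 had 2856, 3618, 3428 and 3156 normalized counts in the control libraries and 5412, 5800, 4853 and 5505 in the Prmt5-null libraries (log2 fold change 0.73, SE 0.09, limma adjusted p = 0.000377). Fbxl5, the iron-sensing subunit of a ubiquitin ligase, had 2794, 2673, 2590 and 2500 normalized counts in the control libraries and 3620, 4618, 4207 and 4516 in the Prmt5-null libraries (log2 fold change 0.68, SE 0.09, limma adjusted p = 0.000496), and its exon levels were 0.909, 0.738, 0.839 and 0.876 in control and 0.982, 0.938, 0.934 and 0.975 in Prmt5-null iGBs. Here less of the early-stop form went with a higher gene. Eno2, the neuronal enolase, rose by 0.75 (log2, SE 0.20, limma adjusted p = 0.0274), but lost its call without any 1 of PRMT5-10618, PRMT5-10771, CTRL-10650 and CTRL-10597 (adjusted p = 0.0518 to 0.0742 by limma), and its exon had as few as 1 read in a library. The Eno2 exon is annotated in an NMD-class transcript and no coding one.

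Mpdu1 combined a deep, large fall in inclusion with a called fall of the gene, at 2857, 2557, 2570 and 2373 normalized counts in the control libraries and 1959, 1770, 1667 and 1511 in the Prmt5-null libraries (log2 fold change -0.59, SE 0.09, limma adjusted p = 0.00186). Il12rb1 also fell (log2 fold change -0.68, SE 0.10, limma adjusted p = 0.0015). Tyw5, which gained its poison exon, and Mdm2 rose. Tyw5 had 549, 542, 562 and 471 normalized counts in the control libraries and 850, 1038, 656 and 887 in the Prmt5-null libraries (log2 fold change 0.68, SE 0.13, limma adjusted p = 0.00622), and Mdm2, a transcriptional target of p53, had 7051, 7809, 7169 and 7159 normalized counts in the control libraries and 9461, 12115, 10280 and 12182 in the Prmt5-null libraries (log2 fold change 0.59, SE 0.09, limma adjusted p = 0.00162). Mpdu1 fell short of 1.5-fold without PRMT5-10770, PRMT5-10771 or CTRL-10370 (log2 -0.57, -0.53 and -0.54), Tyw5 without PRMT5-10618 (0.58), and Mdm2 without PRMT5-10618, PRMT5-10771, CTRL-10650, CTRL-10370 or CTRL-10597 (0.53 to 0.58). For the other genes of the 8 largest falls and rises the gene was not called. Trmt2a had a log2 fold change of 0.04, Cyp4f18 of -0.16, Dpp7 of 0.25 and Rad52 of -0.25, and Unc45a, at 0.44 (adjusted p = 0.00287 by limma), stayed under 1.5-fold. In Trmt2a, where close to equal shares of transcripts held and lacked a coding exon, the gene had an adjusted p of 0.859 by limma.

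**Figure D5:**
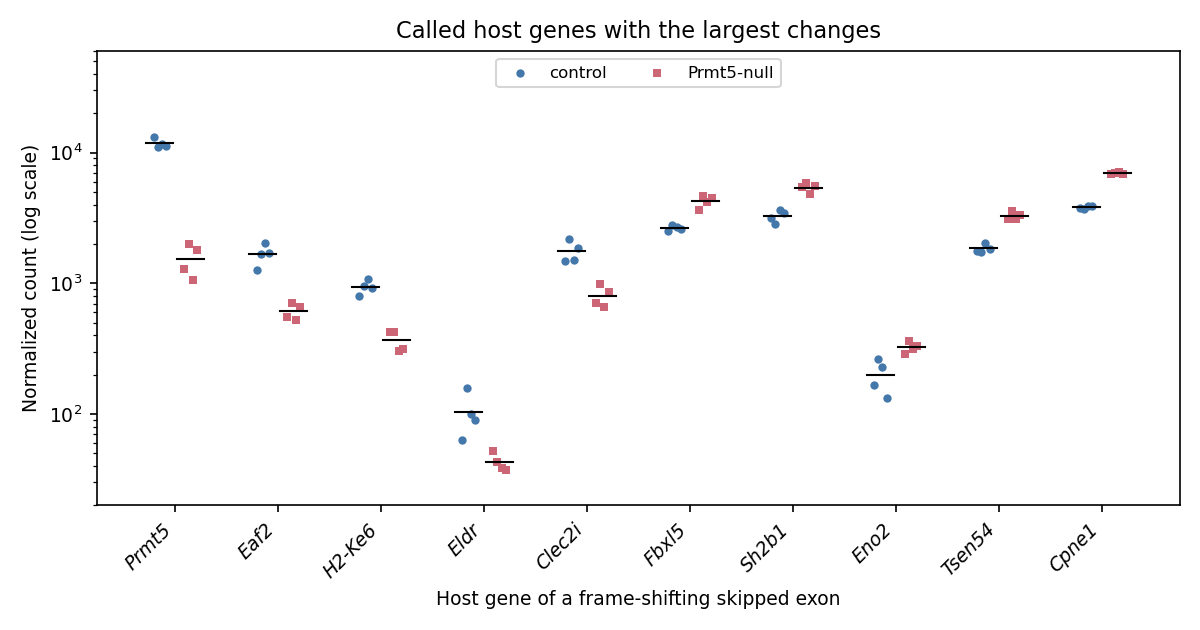
Normalized count (y axis, log scale) of the 5 called host genes with the largest falls and the 5 with the largest rises (x axis); circles are the 4 control and squares the 4 Prmt5-null libraries, and bars their means. The 2 genotypes do not overlap in any of the 10 genes.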

How the data were processed

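RNA-seq of day 4 iGBs was analysed in 4 Prmt5-null and 4 control libraries, 1 per mouse. Per the labels and the paper's methods, the authors removed ribosomal RNA, made stranded libraries, trimmed reads with Trimmomatic 0.32, aligned them with STAR 2.3.0e to mm10 (GRCm38), counted genes with featureCounts 1.4.4 and deposited a signal, counts divided by DESeq2 1.14.1 size factors. The strand setting of the counting is not given in the sources used here. All values (100%) were whole multiples of 1 read, within 0.01. Splicing was called by the authors with rMATS; lists of 4 inclusion levels and read counts per genotype were deposited without library names, so no SD or test is given. The authors' p-values, FDR values and inclusion differences were not used, nor were the 4 tables of other event types.

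Normalized counts were compared with limma 3.58.1 (R 4.3.3) on log2(value + 1), genes with a mean of at least 10, and called at a Benjamini-Hochberg adjusted p below 0.05 and 1.5-fold. Fold changes on this scale understate the change of low genes. In a simulation of this comparison (16250 genes, 200 of them changed) limma found 95.5% of the changes and made 6 false calls. The share of changes that limma finds in the real libraries, with their own spread between mice, was not tested. edgeR 4.0.16 and DESeq2 1.42.0 on recovered reads were alternatives. Differences are means of 4, Prmt5-null minus control, recomputed in Python 3.11.15 with pandas 2.3.3. Exons were placed on GENCODE M21 transcripts of GRCm38, as no genome sequence was used here. An early stop ends more than 50 bases before the last junction. Members, gene lists and the early-stop reading were chosen with earlier results of these data known.

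Named exons include those of genes the paper names for splicing, with Prmt5 and Mdm2 added. Also named are the 8 largest falls and rises with 20 reads in every library and no overlap. The 4 largest of each of 8 lists were named under the same conditions. The rest are the 5 with most reads, the host genes with the 5 largest called rises and falls, and the 3 smallest differences. Wilson intervals cover counting over exons at 95% only.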

Additional observations from a re-analysis of the deposited data

Results flagged for a closer look

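A single value stood apart from the other 3 of its genotype in 10 of 152 groups of 4 among the named exons and called host genes, and chance alone is set to mark about 1 in 20. Only a few have depth behind them. In Mdm2, 1 control level was 0.616 against 0.695 to 0.705 in the others, and in the gene itself the library CTRL-10596 had 7809 normalized counts against 7051 to 7169. In Rnf146, 1 control level was 0.169 against 0.401 to 0.424, with as few as 21 reads in a library.

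The other marks sit on sparse reads or at the ceiling. In Polg2, 1 control level was 0.366 and in Smc4 1 Prmt5-null level was 0.685, each against 1 in the other 3 and with as few as 1 read in a library. In Eaf2, 1 control level was 0.718 against 1, and in Eldr 1 Prmt5-null level was 0.149 against 0, both with as few as 3 reads. In Tdp2, 1 Prmt5-null level was 0 against 0.147 to 0.177, with as few as 4 reads. Il21r and Il9r had 1 control level each of 0.994 and 0.991, against 1 in the others.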

How the results depend on the processing

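The share of exons with lower inclusion, 68.4% in the main setting, was 72.8% with 20 and 76.8% with 50 reads in every library and 74.2% among exons with levels that do not overlap. The median difference went from -0.127 to -0.288 for differences of at least 0.25, by construction. Leaving out each list position gave shares of 68.0% to 68.5% and medians of -0.135 to -0.116. Coding exons alone gave 71.9% and -0.129. Junction reads alone (68.6% and -0.137) and the set without Prmt5 (68.3% and -0.127) were chosen after seeing the data. Recomputed levels differed from the deposited ones by at most 0.0005. Host gene calls went from 42 (33 lower, 9 higher) to 21 (15 lower, 6 higher of 290) with at least 20 reads in every library and to 10 (5 lower, 5 higher of 177) with at least 50, alternatives also added later. Lower and higher calls were thus equal in number at 50 reads. The share called lower was also smaller at that depth among hosts of exons with a length divisible by 3, at 2 of 168 against 15 of 382. Leaving out each library gave 37 to 46 calls among the hosts (29 to 41 lower, 5 to 15 higher) and 795 to 1173 among all genes, where the main count was 1053. No replicate number is shared between genotypes, so no pairing by number was possible. The median log2 fold change of the hosts, -0.06, ran from -0.09 without PRMT5-10618 to -0.03 without PRMT5-10770. With the experiment as a block in all 18 placements, 42 to 45 hosts were called. Mpdu1 lost its call in 6 settings, Mdm2 in 5, Eno2 in 4 and Tyw5 in 1, at the same direction throughout.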
